A study of Homo sapiens with 15 samples.

Results

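The transcripts of 54 genes of central carbon metabolism were followed in MCF10A cells under glutamine limitation, from glucose uptake and glycolysis through the pentose phosphate pathway to the citric acid cycle. The genes were chosen by symbol, as enzymes of these pathways, with the malic enzymes and the enzymes that make and attach lipoate. All 54 had a row among the 62754 genes of the deposited table of counts, and 53 of them were among the 13828 genes with enough counts to be tested. MCF10A is an established, non-tumorigenic human breast epithelial line, here wild type in every group, and was kept in DMEM/F12 with mammary epithelial supplements, cholera toxin, penicillin and streptomycin. The groups were media limited to 0.04 mM, 0.12 mM, 0.20 mM or 0.28 mM glutamine and full medium with 2.5 mM glutamine, with 3 biological replicates each. Ribosomal RNA was removed from total RNA before the 15 libraries were made.

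Glycolysis splits glucose into pyruvate, which is either reduced to lactate or carried into mitochondria, and the pentose phosphate pathway draws on the same sugars for NADPH and ribose. Glutamine is converted to glutamate and alpha-ketoglutarate and so feeds the citric acid cycle between isocitrate and succinyl-CoA, whereas pyruvate enters as acetyl-CoA or oxaloacetate. The pyruvate and alpha-ketoglutarate dehydrogenase complexes both carry lipoate, a cofactor that LIAS makes and that LIPT2 and LIPT1 help to attach to their core subunits.

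Few of these transcripts were called as changed at any glutamine concentration. At 0.04 mM, DLD and ME1 rose and ALDOA, IDH3B, DLST and LIAS fell, relative to full medium, in a fit with replicate number as a block. Without that block no member was called at any concentration. The ALDOA count is also uncertain, because its exons overlap other genes. For LIAS, lipoyl synthase, all 12 limited libraries lay below the 3 libraries in full medium, and it fell at 0.04, 0.12 and 0.20 mM. DLST, the lipoate-carrying core of the alpha-ketoglutarate dehydrogenase complex, fell at the same concentrations, by 0.21 to 0.26 on the log2 scale. The count of members that changed was close to the share of all genes that did.

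Promoter sequences are shown for the genes whose decreases were called at 3 concentrations, LIAS and DLST, and for ME1, the gene without exonic overlap that rose at 2. Each is the 250 bases before the RefSeq gene start, from GRCh38.p14, read 5′ to 3′ on the gene's strand. Capitals mark the searched motifs: ACGTG or GCGTG, the core bound by hypoxia-inducible factors, CACGTG, the E-box of MYC and MAX, TGACG, the core of the cAMP response element, and TGACNNNGC, the core of the antioxidant response element. Both strands were searched, and every CACGTG also holds an ACGTG.
LIAS, chr4:39458806-39459055, plus strand: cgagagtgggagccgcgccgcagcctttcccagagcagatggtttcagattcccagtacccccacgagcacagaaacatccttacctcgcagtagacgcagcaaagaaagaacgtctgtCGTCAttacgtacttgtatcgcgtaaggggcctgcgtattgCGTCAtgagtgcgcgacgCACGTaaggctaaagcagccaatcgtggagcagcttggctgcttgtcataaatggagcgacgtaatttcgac
DLST, chr14:74881666-74881915, plus strand: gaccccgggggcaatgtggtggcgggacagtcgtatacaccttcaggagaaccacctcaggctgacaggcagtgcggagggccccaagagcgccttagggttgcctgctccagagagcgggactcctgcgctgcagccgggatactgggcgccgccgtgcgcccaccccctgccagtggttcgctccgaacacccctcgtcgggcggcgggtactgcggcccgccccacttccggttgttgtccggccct
ME1, chr6:83431052-83431301, minus strand: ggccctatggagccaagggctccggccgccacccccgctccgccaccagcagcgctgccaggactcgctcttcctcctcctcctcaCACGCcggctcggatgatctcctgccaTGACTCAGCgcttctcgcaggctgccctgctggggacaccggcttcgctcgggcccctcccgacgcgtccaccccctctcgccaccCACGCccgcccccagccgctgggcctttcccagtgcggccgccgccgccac
The LIAS sequence holds a pair of cAMP cores and 1 hypoxia core, and the ME1 sequence holds 1 antioxidant core and a pair of hypoxia cores. No searched motif lies in the DLST sequence. In windows that add 50 bases after the start, the hypoxia core was found for 42 of the 52 members with a promoter in the RefSeq table (80.8%), against 61.9% of 15843 protein-coding genes and 52.4% of all 27305 genes. The E-box was found for 9 members (17.3%), among them HK2, LDHA, PFKFB3 and GAPDH, against 10.9% of coding genes and 8.77% of all genes. The cAMP core was found for 21 members (40.4%), against 34.6% of coding and 28.4% of all genes. The antioxidant core, searched only after the values had been seen, was found for 10 members (19.2%), against 17.9% of coding and 16.1% of all genes. A gene was counted when any of its windows held the motif. The 27305 genes had 35116 windows, and the part of unequal numbers of windows per gene was not tested. These matches are letters in a window and were not tested as sites.

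Levels across genes were compared as CPM, counts scaled to one common library total after trimmed mean of M-values (TMM) normalization, per kilobase of exon. GAPDH, which oxidises glyceraldehyde phosphate, was highest, with 1274 ± 110 CPM per kilobase at 0.04 mM and 1450 ± 58.1 in full medium (SD, n = 3 each). Enolase ENO1 had 575 ± 19.1 at 0.04 mM and 613 ± 18.2 in full medium, and pyruvate kinase PKM had 434 ± 37.8 at 0.04 mM and 407 ± 62.6 in full medium. Among the 53 tested genes the mean per kilobase over all 15 libraries ran from GAPDH through ENO1, PKM, LDHA and TPI1 down to LIPT1, at 0.901. FH and PGD, at 119 and 118 CPM per kilobase over all libraries, stood next to each other and overlapped in their SDs in each group. The order of such close genes depended on the length used. With the longest transcript in place of all exons, PGD had 187 and FH 144 at 0.04 mM, and 185 and 137 in full medium. By that length PKM stood above ENO1 at 0.04 mM (1232 against 1190) and below it in full medium (1156 against 1270). LIAS was among the lowest, with 0.822 ± 0.135 CPM per kilobase at 0.04 mM and 1.48 ± 0.243 in full medium. ME3, a mitochondrial malic enzyme, had between 0 and 3 counts per library and was not tested.

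**Figure D1:**
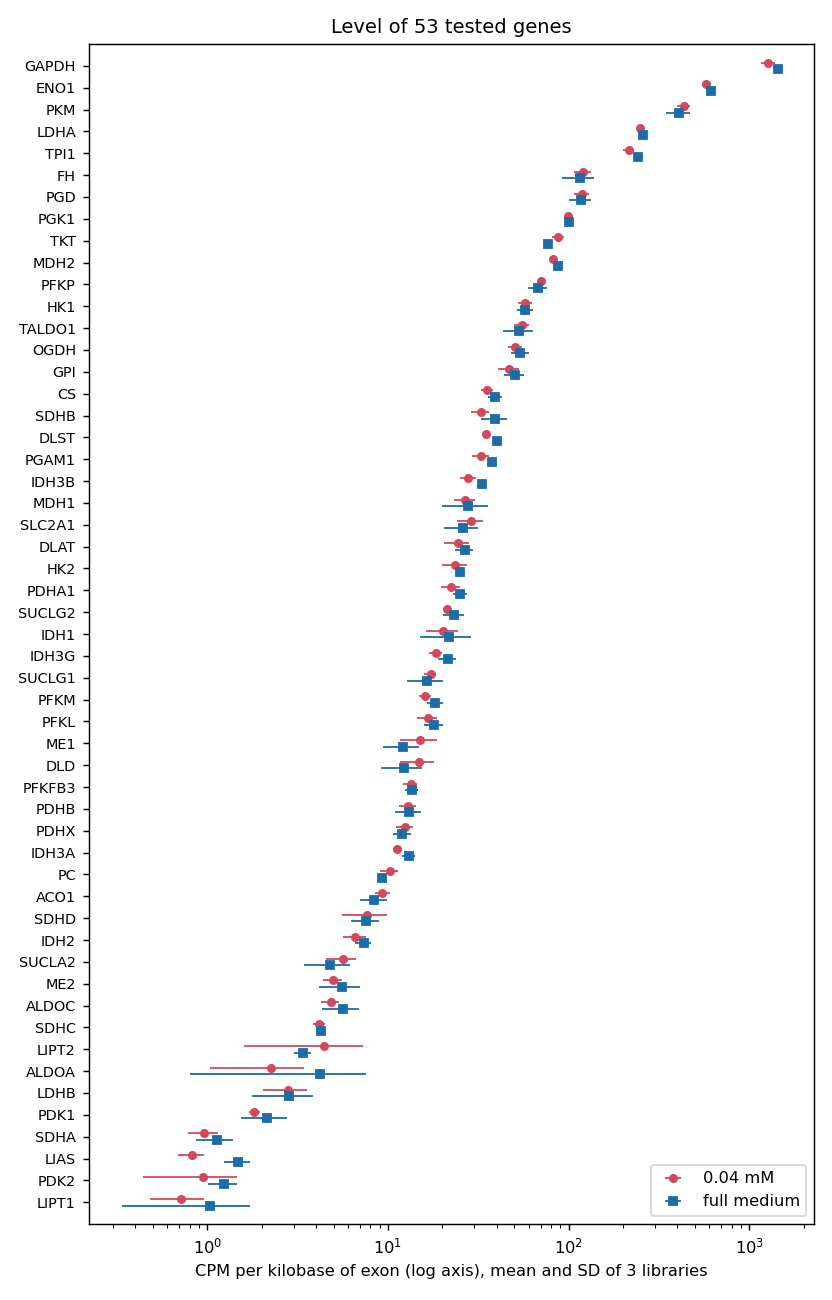
CPM per kilobase of exon (log axis) for the 53 tested genes, ordered by their mean over all 15 libraries. Circles are means at 0.04 mM glutamine and squares means in full medium, with bars for the SD of 3 libraries. The 2 groups lie close together for most genes, and the LIAS circle lies at 0.822 against 1.48 for its square.

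Isozyme levels were set side by side on the same per-kilobase scale. HK1 was 2.37 times as high as HK2 over all libraries, with ratios of 1.99 to 2.78 in single libraries. With the longest transcript in place of all exons the HK1 ratio was 3.55, outside that range. Among the phosphofructokinases, PFKP was 4.11 times as high as PFKL, and the lactate dehydrogenase subunit LDHA was 92.5 times as high as LDHB. LDHB shares 33.4% of its exonic length with another gene, which makes its level uncertain. The ATP-forming succinyl-CoA ligase subunit SUCLA2 reached 0.253 of the GTP-forming SUCLG2, or 0.518 with the longest transcript in place of all exons. SUCLG1 stood at 0.786 of SUCLG2 by all exons and at 1.45 times SUCLG2 by the longest transcript, so the order of this pair depended on the length used. The cytosolic ME1 was 2.77 times as high as the mitochondrial ME2, or 1.605 times by the longest transcript. SDHA, the flavin subunit of succinate dehydrogenase, had 1.13 CPM per kilobase over all libraries, against 36.4 for the iron-sulphur subunit SDHB. Its 3 annotated pseudogene copies held 0.0339 CPM together. How the authors counted reads that match several loci is not given in the sources used here, and the part of such copies in the SDHA level was not tested.

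The libraries held 3704170 to 13361406 gene counts, and the 54 genes took 1.86 to 2.07% of them. The third replicates at 0.04 mM (2.97%) and 0.12 mM (1.62%) stood apart with over 1% of counts in mitochondrial ribosomal RNA. Libraries with the same replicate number deviated together (r 0.184 to 0.489 over 30 pairs, with group means removed). The replicate number was a block in the fit that gave the calls, a design chosen with earlier results of these data known. Without the block, 6, 0, 2 and 0 genes passed at the 4 limited concentrations, low to high, against 1858, 1149, 2050 and 287 genes with it. At an unadjusted p under 0.05, 1609, 1111, 1415 and 616 genes passed without the block. What a replicate number stands for is not given in the labels. The 10 basal epithelial markers, keratins KRT5, KRT14 and KRT17 among them, were detected in every group and summed to 15403 to 25965 CPM. Of 7 fibroblast markers 6 were detected in at least 1 library, LUM was at 0, and their sum was 50.4 to 61.0 CPM at 0.04 mM, against 33.3 to 45.8 CPM in full medium. That sum lay mostly in COL1A1 and DCN, with means of 27.4 and 29.7 CPM at 0.04 mM, against 20.0 and 18.4 CPM in full medium. COL1A2, COL3A1 and PDGFRA were at 0 in 10, 13 and 7 of the 15 libraries. Of 4 endothelial markers 3 were detected in at least 1 library, CDH5 was at 0, and their sum was 5.84 to 12.2 CPM at 0.04 mM, against 3.77 to 5.68 CPM in full medium. Most of it was PECAM1, with means of 7.62 CPM at 0.04 mM and 4.17 CPM in full medium, and VWF was at 0 in 12 libraries. The 5 immune markers summed to at most 0.559 CPM. The part of these markers in the results below was not tested.

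The effect of 0.04 mM glutamine was asked first. Of the 53 tested members, 2 rose and 4 fell at an adjusted p under 0.05 by edgeR's quasi-likelihood test with Benjamini-Hochberg adjustment over 13828 genes. Among all genes tested, 7.21% rose and 6.23% fell, so the count of members is near the background and is not a result about the pathway as a whole. The median log2 fold change of the members was -0.09, against 0.01 for all genes. Of the members 18 lay above 0 and 35 below, and of all genes 7044 above and 6784 below. The members' median was -0.11 with no filter beyond 1 count and -0.04 with the third replicates left out. For 44 of the 53 members the 95% interval of the log2 fold change, from the fit with the block, lay within 0.5 of 0. For 18 it lay within 0.25. Among all 13828 genes these counts were 7534 and 1832, and the part of the members' levels in this was not tested. At 0.12 mM, 0.20 mM and 0.28 mM, 47, 43 and 46 members had intervals within 0.5 of 0, against 8096, 7762 and 8637 of all genes. None of the 6 calls passed without the replicate block, where their adjusted p ran from 0.119 to 0.686.

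At 0.12 mM, 1 member (TKT) rose and 2 (DLST and LIAS) fell, where 4.41% of all genes rose and 3.90% fell. The members' median was -0.03 at 0.12 mM, against 0.00 for all genes. At 0.20 mM, 3 members (DLD, SUCLA2 and ME1) rose and 5 (PFKL, ALDOA, IDH3G, DLST and LIAS) fell, where 7.67% of all genes rose and 7.15% fell. The members' median was -0.07 at 0.20 mM, against 0.00 for all genes. At 0.28 mM, 0 members passed in either direction by edgeR and 0 by DESeq2, with 10 of 53 at an unadjusted p under 0.05, against 2196 of all 13828 genes, where 1.23% of all genes rose and 0.846% fell. In the direct comparison of 0.04 with 0.28 mM, 0 members passed by edgeR and 0 by DESeq2, with 4 of 53 at an unadjusted p under 0.05, against 1247 of all genes, and 0.0145% of all genes rose and 0.0289% fell. The 4 comparisons with full medium share its 3 libraries, so their values for a gene are not independent of each other.

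**Figure D2:**
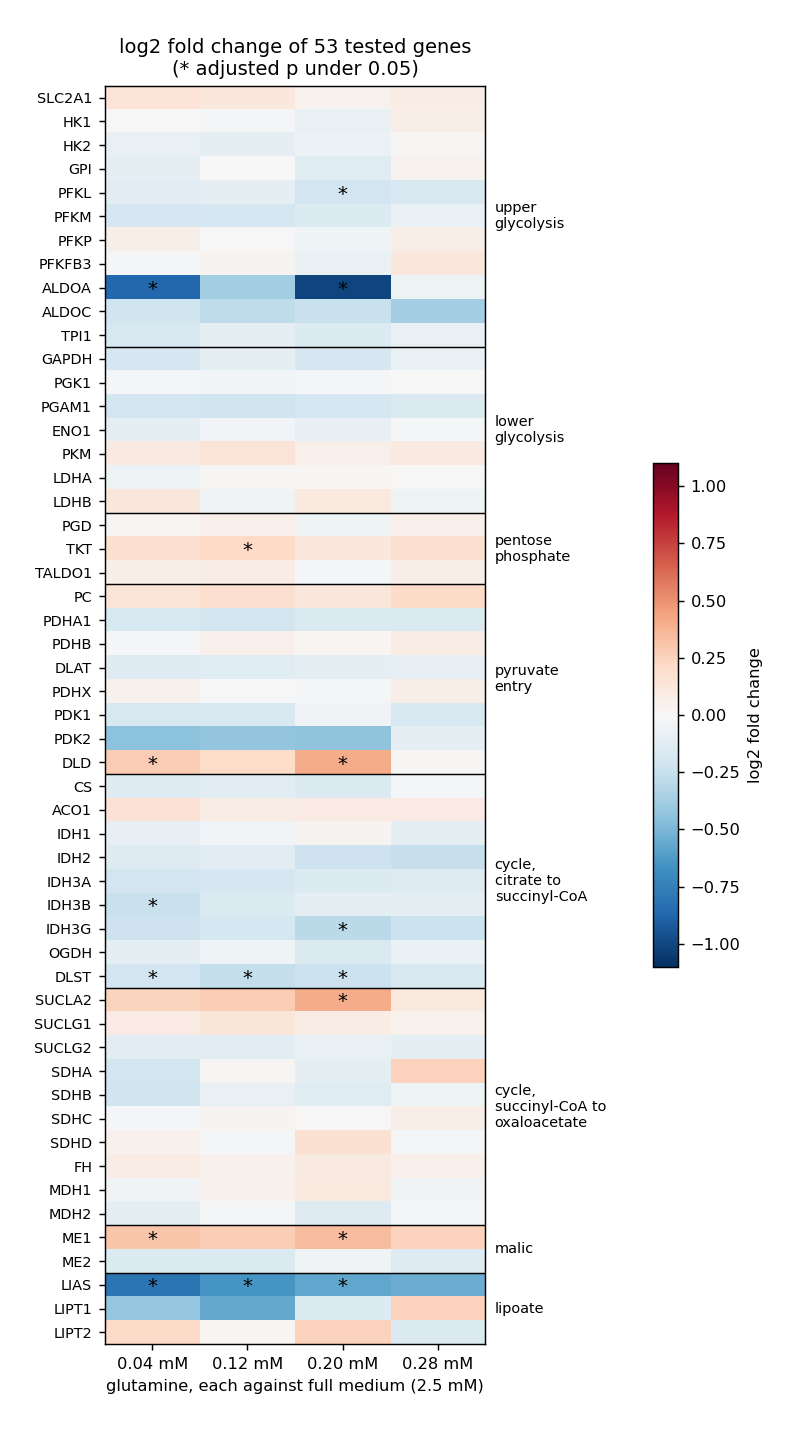
Log2 fold change of each of the 53 tested genes (rows, grouped by role) at the 4 limited concentrations, low to high glutamine against full medium (columns), with red for higher and blue for lower. Stars mark the 17 values with an adjusted p under 0.05, none of them at 0.28 mM. LIAS is blue in all 4 columns.

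Of the 3 lipoate genes, LIAS fell, at 0.04, 0.12 and 0.20 mM, where 6.23%, 3.90% and 7.15% of all genes fell. LIAS (ENSG00000121897, chr4:39459056-39479506) inserts sulphur into protein-bound octanoate to make lipoate. LIAS had 10.8, 10.3 and 7.84 CPM at 0.04 mM, 11.99, 11.3 and 9.31 CPM at 0.12 mM and 12.8, 10.8 and 11.2 CPM at 0.20 mM. At 0.28 mM LIAS had 14.4, 10.1 and 10.7 CPM, against 14.8, 16.8 and 20.4 CPM in full medium. All 12 limited libraries lay below the lowest library in full medium. LIAS fell by 0.80 on the log2 scale at 0.04 mM (SE 0.17, adjusted p = 0.00147, edgeR), by 0.65 at 0.12 mM (SE 0.16, adjusted p = 0.00911) and by 0.57 at 0.20 mM (SE 0.15, adjusted p = 0.0116). At 0.28 mM its log2 fold change was -0.54 (SE 0.15), which missed the threshold with an adjusted p of 0.0539. Between 0.04 and 0.28 mM it differed by -0.26 with a 95% interval of -0.62 to 0.09, so no gradation among the limited media was shown. LIAS rested on 29 to 184 counts per library. Its call at 0.04 mM held in 14 of 16 alternative settings and was lost without the block (adjusted p = 0.119) and with the third replicates left out of all groups. The call at 0.12 mM held in 9 of 16 and that at 0.20 mM in 11 of 16. Both were lost without the block, without the third replicates and after thinning all libraries to the depth of the shallowest. With 1 library left out, the call at 0.12 mM was lost without replicate 3 at 0.12 mM, and that at 0.20 mM without replicate 2 at 0.20 mM. Both were lost without replicate 3 in full medium, where the value at 0.20 mM became -0.37. The exons of LIAS overlap RPL9 on the other strand over 3.09% of their length, and RPL9 itself had a log2 fold change of -0.08 at 0.04 mM (adjusted p = 0.631). LIPT1 and LIPT2, which transfer lipoyl and octanoyl groups, had log2 fold changes of -0.42 and 0.21 at 0.04 mM and were not called in any comparison. They rested on 7 to 32 and 19 to 53 counts per library, and neither interval lay within 0.5 of 0. Both are also uncertain because 19.8% of the exonic length of LIPT1 and 31.0% of that of LIPT2 overlaps other genes.

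**Figure D3:**
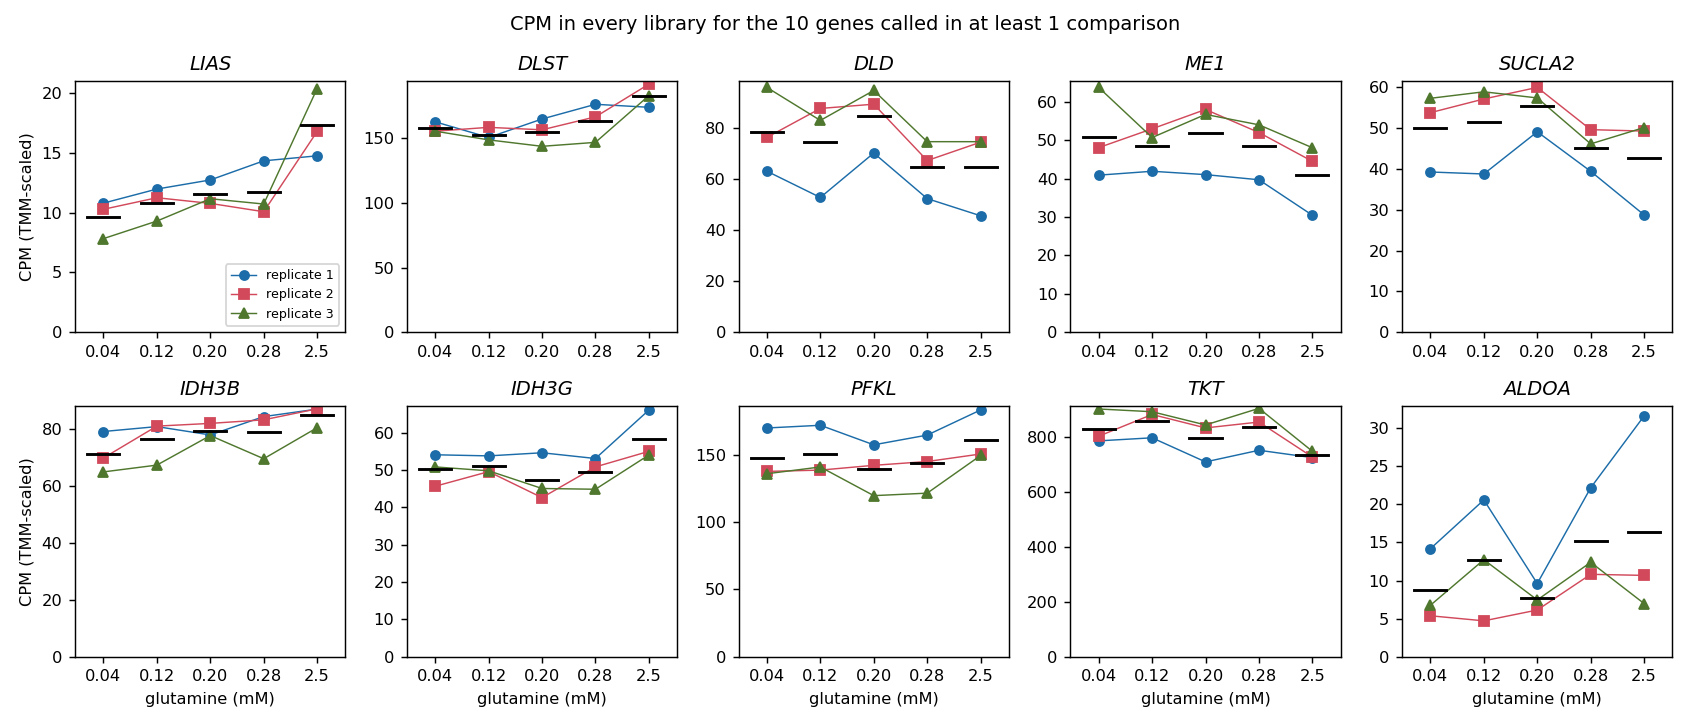
TMM-scaled CPM in each library (vertical axes from 0) of the 10 genes called in at least 1 comparison, by glutamine concentration, with 2.5 mM for full medium. Symbols and thin lines join libraries of 1 replicate number, and black bars are group means. In the LIAS panel all 12 limited libraries lie below the full-medium libraries, while in the DLD, ME1 and SUCLA2 panels replicate 1 lies below the others at every concentration.

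Of the 9 tested members grouped from citrate to succinyl-CoA, the cytosolic IDH1 included, 2 fell at 0.04 mM and 0 rose. Among all genes 6.23% fell and 7.21% rose. DLST (ENSG00000119689, chr14:74881916-74903743) is the succinyltransferase core of the alpha-ketoglutarate dehydrogenase complex. DLST had 163, 156 and 156 CPM at 0.04 mM, 151, 159 and 149 CPM at 0.12 mM and 165, 157 and 144 CPM at 0.20 mM. At 0.28 mM DLST had 176, 167 and 147 CPM, against 174, 192 and 183 CPM in full medium. The libraries at 0.04, 0.12 and 0.20 mM all lay below the 3 in full medium, and those at 0.28 mM overlapped them. Of all 13828 genes, 1135, 921 and 1161 lay wholly below full medium at 0.04, 0.12 and 0.20 mM. DLST fell by 0.21 on the log2 scale at 0.04 mM (SE 0.07, adjusted p = 0.0337, edgeR), by 0.26 at 0.12 mM (SE 0.07, adjusted p = 0.0123) and by 0.24 at 0.20 mM (SE 0.07, adjusted p = 0.0147). At 0.28 mM it had -0.16 (SE 0.07, adjusted p = 0.205). Its call at 0.04 mM held in 6 of 16 alternatives and was lost without replicate 1 or 2 at 0.04 mM or replicate 2 or 3 in full medium. The calls at 0.12 and 0.20 mM each held in 9 of 16. The call at 0.12 mM was lost without replicate 1 at 0.12 mM, and the call at 0.20 mM without replicate 2 or 3 at 0.20 mM. Both were lost without replicate 2 or 3 in full medium. With spike-in scaling the value at 0.12 mM was -0.45.

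IDH3B (ENSG00000101365, chr20:2658395-2664216) and IDH3G (ENSG00000067829, chrX:153785768-153794375) are the beta and gamma subunits of the NAD-linked isocitrate dehydrogenase. IDH3B had 79.03, 69.7 and 64.9 CPM at 0.04 mM, 80.7, 80.9 and 67.2 CPM at 0.12 mM and 77.8, 81.9 and 77.6 CPM at 0.20 mM. At 0.28 mM IDH3B had 84.3, 83.1 and 69.5 CPM, against 86.9, 86.98 and 80.4 CPM in full medium. At 0.04 mM its 3 libraries lay below those in full medium, as did those of 1135 of all 13828 genes. IDH3B fell there by 0.25 (SE 0.08, adjusted p = 0.0317, edgeR). The call held in 5 of 16 alternatives and was lost without replicate 2 or 3 of either group and by DESeq2 (adjusted p = 0.0524). At the other concentrations IDH3B had log2 fold changes of -0.15 to -0.10 and overlapped full medium. IDH3G had 54.1, 45.6 and 50.8 CPM at 0.04 mM, 53.8, 49.5 and 49.8 CPM at 0.12 mM and 54.6, 42.6 and 45.03 CPM at 0.20 mM. At 0.28 mM IDH3G had 53.05, 50.8 and 44.8 CPM, against 66.02, 54.97 and 54.001 CPM in full medium. Replicate 1 was highest in each group, and at 0.20 mM that library overlapped full medium. IDH3G fell by 0.30 at 0.20 mM (SE 0.08, adjusted p = 0.0141, edgeR) and had -0.23, -0.20 and -0.24 at 0.04, 0.12 and 0.28 mM (adjusted p = 0.0789, 0.157 and 0.134). It is marked as uncertain because 10.2% of its exonic length overlaps SSR4 on the other strand. SSR4 itself had a log2 fold change of 0.03 at 0.20 mM (adjusted p = 0.854). The IDH3G call held in 11 of 16 alternatives and was lost without replicate 2 at 0.20 mM or replicate 1 in full medium. The catalytic alpha subunit IDH3A had -0.20 at 0.04 mM and passed nowhere, and its values are uncertain, with 38.9% of its exonic length shared with other genes.

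CS, IDH1 and OGDH passed in no comparison. CS, citrate synthase, condenses acetyl-CoA with oxaloacetate. CS had 246, 210.5 and 223 CPM at 0.04 mM, 243, 231 and 215 CPM at 0.12 mM and 233, 228 and 216 CPM at 0.20 mM. At 0.28 mM CS had 253, 244 and 243 CPM, against 232, 243 and 276 CPM in full medium. The groups overlapped at every concentration, and its log2 fold changes of -0.15 to -0.02 had adjusted p from 0.146 to 0.907. IDH1 is the cytosolic NADP-linked isocitrate dehydrogenase. IDH1 had 79.8, 90.5 and 117 CPM at 0.04 mM, 85.7, 94.1 and 117 CPM at 0.12 mM and 88.1, 104 and 118 CPM at 0.20 mM. At 0.28 mM IDH1 had 76.7, 94.3 and 112 CPM, against 70.2, 105 and 134 CPM in full medium. Replicate 1 was lowest and replicate 3 highest in each of the 5 groups. Its log2 fold change at 0.04 mM was -0.09 with a 95% interval of -0.25 to 0.08 (adjusted p = 0.541). OGDH is the alpha-ketoglutarate-oxidising subunit, partner of DLST in the same complex. OGDH had 275, 236 and 278 CPM at 0.04 mM, 282, 265 and 270.5 CPM at 0.12 mM and 264, 243 and 251 CPM at 0.20 mM. At 0.28 mM OGDH had 289, 250.1 and 266 CPM, against 317, 256 and 274 CPM in full medium. The libraries overlapped in all comparisons, and OGDH had -0.10 at 0.04 mM (SE 0.06, adjusted p = 0.305) and -0.16 at 0.20 mM (SE 0.06, adjusted p = 0.0893).

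Among the 8 members that act on pyruvate in mitochondria or regulate its oxidation there, DLD was called, at 0.04 and 0.20 mM. Of all genes tested, 7.21% rose at 0.04 mM and 7.67% at 0.20 mM. DLD (ENSG00000091140, chr7:107891107-107921198), dihydrolipoamide dehydrogenase, regenerates lipoate in both complexes and in others. DLD had 63.1, 76.3 and 95.9 CPM at 0.04 mM, 52.8, 87.7 and 83.004 CPM at 0.12 mM and 70.2, 89.4 and 94.7 CPM at 0.20 mM. At 0.28 mM DLD had 52.3, 67.3 and 74.7 CPM, against 45.6, 74.5 and 74.7 CPM in full medium. Replicate 1 was the lowest library in each group, and every limited group overlapped full medium, whereas within replicate numbers 0.04 mM was higher in 3 of 3. DLD rose by 0.28 at 0.04 mM (SE 0.09, adjusted p = 0.0287, edgeR) and by 0.41 at 0.20 mM (SE 0.08, adjusted p = 0.00151). At 0.12 and 0.28 mM its log2 fold changes were 0.20 and 0.01 (adjusted p = 0.160 and 0.962). The call at 0.04 mM held in 6 of 16 alternatives and was lost without replicate 1 or 3 of either group. The call at 0.20 mM held in 14 of 16, also with each library left out, and was lost without the block and with spike-in scaling. LAMB1, which overlaps 1.32% of the exonic length of DLD on the other strand, had 405 to 639 CPM and rose by 0.27 at 0.04 mM (adjusted p = 0.00983), and its part in the DLD count was not tested. At 0.20 mM, LAMB1 had 0.20 (adjusted p = 0.0575).

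PC and PDK1 set how pyruvate is used, PC by carboxylating it to oxaloacetate and PDK1 by phosphorylating and inhibiting pyruvate dehydrogenase. PC had 64.3, 52.8 and 64.6 CPM at 0.04 mM, 57.6, 65.7 and 65.3 CPM at 0.12 mM and 57.5, 58.8 and 64.5 CPM at 0.20 mM. At 0.28 mM PC had 62.6, 56.3 and 73.5 CPM, against 55.8, 53.1 and 56.5 CPM in full medium. At 0.12 and 0.20 mM the 3 libraries lay above full medium, as did those of 764 and 989 of all 13828 genes. With log2 fold changes of 0.19 and 0.12 PC did not pass there (adjusted p = 0.192 and 0.358, edgeR). PC had 0.14 at 0.04 mM and 0.21 at 0.28 mM (adjusted p = 0.326 and 0.201), and 10.5% of its exonic length overlaps LRFN4 on the other strand, so its values are uncertain. PDK1 had 24.98, 28.9 and 27.6 CPM at 0.04 mM, 25.2, 29.8 and 27.4 CPM at 0.12 mM and 25.7, 28.3 and 37.8 CPM at 0.20 mM. At 0.28 mM PDK1 had 22.8, 28.3 and 32.4 CPM, against 21.3, 36.5 and 37.6 CPM in full medium. Full medium replicate 1 was the lowest of all 15 libraries and the groups overlapped throughout. The log2 fold change of PDK1 at 0.04 mM was -0.18 with a 95% interval of -0.43 to 0.08 (adjusted p = 0.387). The pyruvate dehydrogenase subunits PDHA1, PDHB, DLAT and PDHX had -0.18, -0.02, -0.14 and 0.05 at 0.04 mM, none of them called. PDK2 had -0.45 but a wide interval, from -0.97 to 0.06. PDHA1 and PDK2 are uncertain, since 21.3% and 38.6% of their exonic length overlaps other genes.

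From succinyl-CoA to oxaloacetate, 1 of 10 tested members passed, at 0.20 mM, where 7.67% of all genes rose and 7.15% fell. SUCLA2 (ENSG00000136143, chr13:47942656-48001273) is the ATP-forming beta subunit of succinyl-CoA ligase. SUCLA2 had 39.2, 53.8 and 57.3 CPM at 0.04 mM, 38.7, 57.1 and 58.9 CPM at 0.12 mM and 49.1, 59.96 and 57.4 CPM at 0.20 mM. At 0.28 mM SUCLA2 had 39.4, 49.6 and 46.1 CPM, against 28.7, 49.3 and 50.1 CPM in full medium. Replicate 1 was the lowest library of each group, and the limited groups overlapped full medium. SUCLA2 rose by 0.41 at 0.20 mM (SE 0.10, adjusted p = 0.00383, edgeR), and it had 0.24, 0.28 and 0.11 at 0.04, 0.12 and 0.28 mM (adjusted p = 0.109, 0.0723 and 0.627). The call held in 12 of 16 alternatives and was lost without the block and with spike-in scaling. It was also lost without replicate 1 at 0.20 mM and after thinning all libraries to the depth of the shallowest, where the value was 0.19. SUCLG1, the alpha subunit, had 0.09 at 0.04 mM, and the GTP-forming SUCLG2 had -0.12.

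SDHA, which holds the flavin of succinate dehydrogenase, was measured with few counts. SDHA had 9.41, 8.30 and 6.49 CPM at 0.04 mM, 12.4, 7.24 and 8.93 CPM at 0.12 mM and 9.26, 6.59 and 10.5 CPM at 0.20 mM. At 0.28 mM SDHA had 13.5, 9.49 and 10.97 CPM, against 12.003, 7.87 and 8.53 CPM in full medium. It overlapped full medium at every concentration, and its log2 fold change at 0.04 mM was -0.20 with a 95% interval of -0.58 to 0.17 (adjusted p = 0.511, edgeR). SDHB, SDHC and SDHD had -0.22, -0.02 and 0.05, fumarase FH 0.08, and the malate dehydrogenases MDH1 and MDH2 -0.04 and -0.09 at 0.04 mM. None of these 6 was called in any comparison, and SDHD is uncertain, with 12.2% of its exonic length overlapping other genes.

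ME1 (ENSG00000065833, chr6:83210402-83431051), cytosolic malic enzyme, turns malate into pyruvate and yields NADPH. ME1 had 40.9, 48.1 and 63.8 CPM at 0.04 mM, 41.9, 52.98 and 50.7 CPM at 0.12 mM and 41.1, 58.03 and 56.7 CPM at 0.20 mM. At 0.28 mM ME1 had 39.7, 52.01 and 54.03 CPM, against 30.5, 44.5 and 48.1 CPM in full medium. Full medium replicate 1 was the lowest library, and the groups overlapped, but each limited library was higher than the full-medium library of its number, in 3 of 3 numbers at each concentration. ME1 rose by 0.31 at 0.04 mM (SE 0.10, adjusted p = 0.0283, edgeR) and by 0.35 at 0.20 mM (SE 0.09, adjusted p = 0.00909). Its values of 0.27 at 0.12 mM and 0.26 at 0.28 mM missed the threshold (adjusted p = 0.0655 and 0.140). ME2 had -0.15 at 0.04 mM (adjusted p = 0.261). The call of ME1 at 0.04 mM held in 5 of 16 alternatives and the call at 0.20 mM in 12 of 16. The first was lost without replicate 1 or 3 at 0.04 mM or replicate 1 or 2 in full medium, and the other without replicate 2 at 0.20 mM or replicate 1 in full medium.

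**Figure D4:**
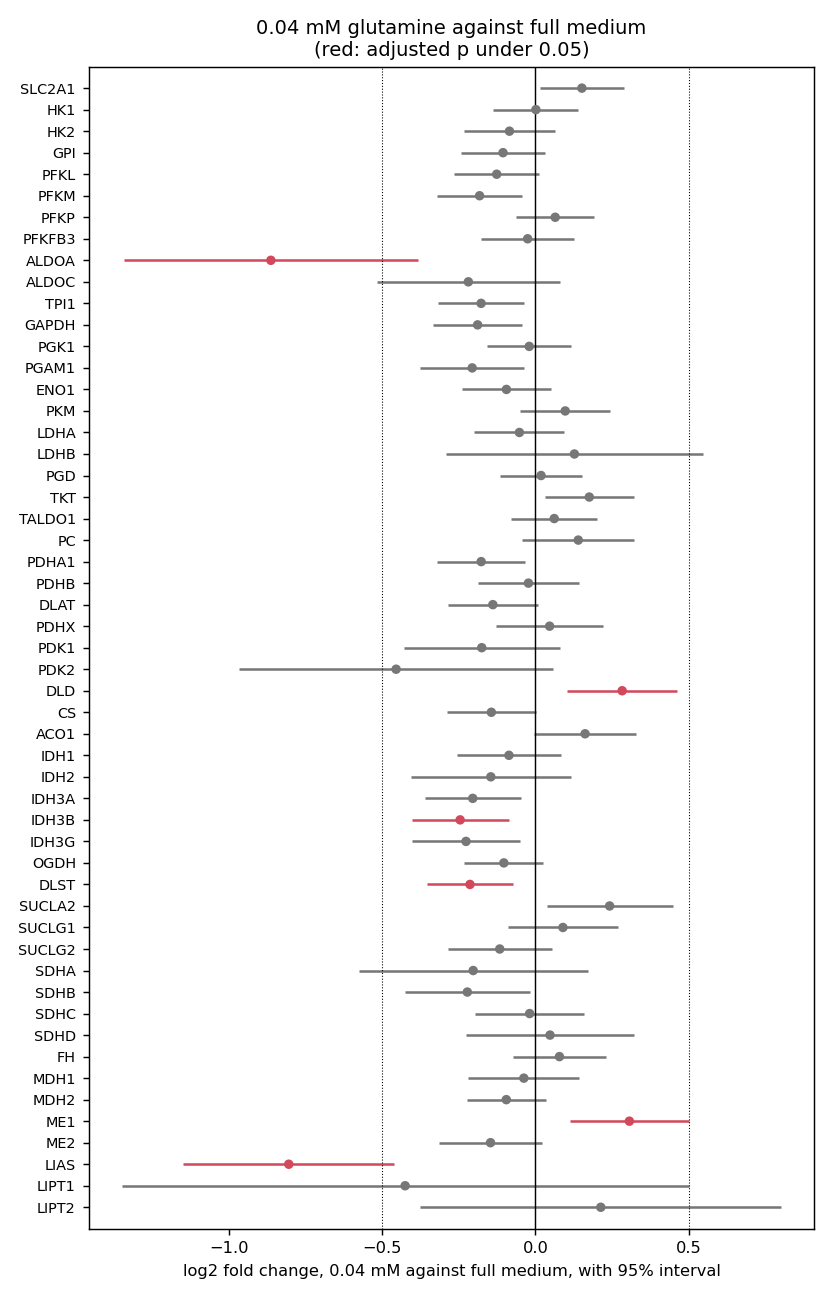
Log2 fold change at 0.04 mM glutamine against full medium for the 53 tested genes, with 95% intervals from the edgeR fit with the replicate block. Red marks an adjusted p under 0.05, and dotted lines stand 0.5 either side of 0. For 44 genes the whole interval lies between the dotted lines, and LIAS, ALDOA and LIPT1 reach farthest below them.

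In glucose uptake and upper glycolysis, 1 of 11 tested members fell at 0.04 mM and 0 rose, near the 6.23% of all genes that fell. SLC2A1, the glucose transporter GLUT1, admits glucose to the cell. SLC2A1 had 155, 141 and 112 CPM at 0.04 mM, 152, 136 and 110.4 CPM at 0.12 mM and 137, 135 and 105 CPM at 0.20 mM. At 0.28 mM SLC2A1 had 142, 136 and 109 CPM, against 147, 126 and 94.95 CPM in full medium. Replicate 1 was highest and replicate 3 lowest in every group, and the groups overlapped. The log2 fold change of SLC2A1 at 0.04 mM was 0.15 with a 95% interval of 0.01 to 0.29 (adjusted p = 0.138, edgeR), and it had 0.12, 0.04 and 0.08 at the higher concentrations. HK2 phosphorylates glucose. HK2 had 165, 145 and 119 CPM at 0.04 mM, 156, 154 and 116 CPM at 0.12 mM and 158, 141 and 137 CPM at 0.20 mM. At 0.28 mM HK2 had 165, 157 and 138 CPM, against 155, 155 and 145 CPM in full medium. All limited groups overlapped full medium, with log2 fold changes of -0.10 to 0.01 and adjusted p from 0.451 to 0.964. PFKFB3 makes the sugar bisphosphate that activates phosphofructokinase. PFKFB3 had 88.1, 82.8 and 73.8 CPM at 0.04 mM, 92.7, 80.8 and 81.3 CPM at 0.12 mM and 85.8, 78.1 and 73.5 CPM at 0.20 mM. At 0.28 mM PFKFB3 had 98.2, 93.5 and 78.1 CPM, against 85.3, 88.6 and 75.2 CPM in full medium. Its groups overlapped too, and at 0.04 mM its log2 fold change was -0.03 with a 95% interval of -0.18 to 0.13 (adjusted p = 0.869).

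PFKL (ENSG00000141959, chr21:44300053-44327373) is the liver-type phosphofructokinase. PFKL had 169.9, 138 and 136 CPM at 0.04 mM, 172, 139 and 141 CPM at 0.12 mM and 157, 142 and 119.7 CPM at 0.20 mM. At 0.28 mM PFKL had 165, 145 and 122 CPM, against 183, 151 and 149 CPM in full medium. Replicate 1 was highest in each group, and the library of each number was lower in limited than in full medium. PFKL fell by 0.21 at 0.20 mM (SE 0.07, adjusted p = 0.0326, edgeR) and had -0.13, -0.10 and -0.17 at 0.04, 0.12 and 0.28 mM (adjusted p = 0.230, 0.398 and 0.193). The call held in 7 of 16 alternatives and was lost without replicate 1 or 3 at 0.20 mM or replicate 3 in full medium. PFKM and PFKP had -0.18 and 0.06 at 0.04 mM and did not pass.

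ALDOA (ENSG00000149925, chr16:30064279-30070420) encodes the aldolase that splits fructose bisphosphate, and its count is uncertain because 53.5% of its exonic length is shared with other annotated genes, AC093512.2 on the same strand among them. ALDOA had 14.2, 5.38 and 6.76 CPM at 0.04 mM, 20.6, 4.71 and 12.7 CPM at 0.12 mM and 9.61, 6.13 and 7.45 CPM at 0.20 mM. At 0.28 mM ALDOA had 22.2, 10.8 and 12.4 CPM, against 31.6, 10.7 and 6.98 CPM in full medium. Replicate 1 was the highest library in each group and 31.6 CPM in full medium replicate 1 the highest of all, so the groups overlapped. ALDOA fell by 0.86 at 0.04 mM (SE 0.24, adjusted p = 0.0127, edgeR) and by 1.01 at 0.20 mM (SE 0.23, adjusted p = 0.00291). It had -0.39 and -0.06 at 0.12 and 0.28 mM (adjusted p = 0.300 and 0.934). With DESeq2 neither call passed (adjusted p = 0.145 and 0.0921). The calls at 0.04 and 0.20 mM held in 10 and 12 of 16 alternatives. The call at 0.04 mM was lost without replicate 1 or replicate 2 at 0.04 mM or full medium replicate 1. The call at 0.20 mM was lost without replicate 1 at 0.20 mM or full medium replicate 1. Without full medium replicate 1 the log2 fold changes were -0.46 at 0.04 mM and -0.63 at 0.20 mM, and without replicate 1 at 0.20 mM the value there was -0.64, so the size of both decreases rested on single libraries. The level of 3.10 CPM per kilobase for ALDOA over all libraries, against 227 for TPI1, the next enzyme, bears the same uncertainty.

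In lower glycolysis and lactate formation 0 of 7 tested members passed in any comparison with full medium by edgeR. At an unadjusted p under 0.05, 2, 1, 2 and 0 of the 7 passed at the 4 limited concentrations, low to high, against 3749, 3090, 3931 and 2196 of all 13828 genes, so these counts are no result about the 7. By DESeq2 GAPDH passed at 0.04 and 0.20 mM (adjusted p = 0.00886 and 0.00690), and TPI1 of the upper stretch, triose phosphate isomerase, passed at 0.04 mM (adjusted p = 0.0449). LDHA reduces pyruvate to lactate. LDHA had 1633, 1523 and 1484 CPM at 0.04 mM, 1658, 1685 and 1512 CPM at 0.12 mM and 1667, 1688 and 1528 CPM at 0.20 mM. At 0.28 mM LDHA had 1671, 1637 and 1525 CPM, against 1610.0, 1586 and 1610.1 CPM in full medium. The groups overlapped, with log2 fold changes of -0.05 to 0.02, and the interval at 0.04 mM ran from -0.20 to 0.09 (adjusted p = 0.692). GAPDH, PGAM1 and ENO1 had -0.19, -0.21 and -0.09 at 0.04 mM (adjusted p = 0.0726, 0.0954 and 0.415), PGK1 -0.02 and PKM 0.10. For GAPDH, 14.2% of the exonic length overlaps AC006064.4 on the other strand, which had at most 17.4 CPM and fell by 1.21 at 0.04 mM (adjusted p = 0.00268), and its part in the GAPDH count was not tested.

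Of the 3 pentose phosphate genes, TKT passed at 0.12 mM, where 4.41% of all genes rose. TKT (ENSG00000163931, chr3:53224712-53256022), transketolase, moves carbon units between sugar phosphates in the non-oxidative branch. TKT had 788, 805 and 904 CPM at 0.04 mM, 799, 884 and 894 CPM at 0.12 mM and 711, 835 and 846 CPM at 0.20 mM. At 0.28 mM TKT had 753, 856 and 906 CPM, against 726, 729 and 749.6 CPM in full medium. At 0.04, 0.12 and 0.28 mM all 3 libraries lay above those in full medium, and at 0.20 mM replicate 1 did not. Of all 13828 genes, 961, 764 and 600 lay wholly above full medium at 0.04, 0.12 and 0.28 mM. TKT rose by 0.22 at 0.12 mM (SE 0.07, adjusted p = 0.0468, edgeR) and had 0.18, 0.11 and 0.19 at 0.04, 0.20 and 0.28 mM (adjusted p = 0.0981, 0.309 and 0.174). By DESeq2 it also passed at 0.04 mM (adjusted p = 0.0195). The call at 0.12 mM held in 4 of 16 alternatives and was lost without any 1 of the replicates at 0.12 mM or without replicate 2 or 3 in full medium. With spike-in scaling its value at 0.12 mM was 0.04. PGD, an enzyme of the oxidative branch, makes NADPH and ribulose phosphate. PGD had 352, 319 and 385 CPM at 0.04 mM, 355, 354 and 371 CPM at 0.12 mM and 327, 326 and 352 CPM at 0.20 mM. At 0.28 mM PGD had 352, 343 and 385 CPM, against 359, 295 and 389.8 CPM in full medium. Its groups overlapped, with log2 fold changes of -0.05 to 0.06 and adjusted p from 0.665 to 0.895. TALDO1, transaldolase, had 0.06 at 0.04 mM and was not called.

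Differences between replicate numbers were wider than differences between glutamine groups for 37 of the 53 tested members. The median range of mean log2 CPM was 0.28 between the 3 replicate numbers and 0.18 between the 5 groups. IDH1 had a range of 0.58 between numbers and 0.14 between groups, and SLC2A1 had 0.47 and 0.16. LIAS had 0.19 between numbers and 0.85 between groups, and DLST had 0.09 and 0.26. LIPT1, with few counts, also had 0.85 between groups, with 0.69 between numbers, and ALDOA had 0.92 and 1.35. These ranges were taken over unlike numbers of means, 3 for replicate numbers and 5 for groups, and the count of 37 was not set against all genes.

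**Figure D5:**
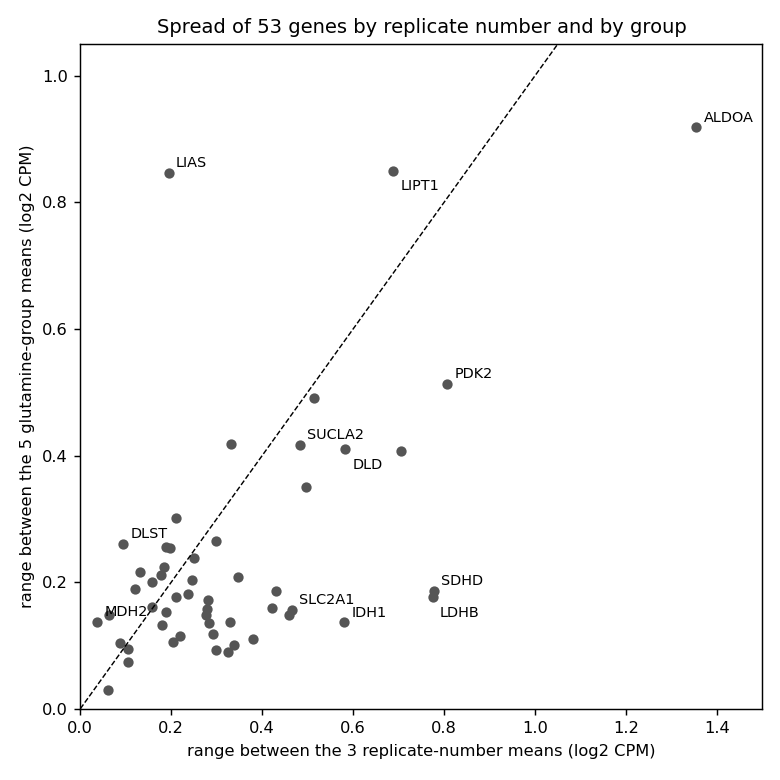
Range of mean log2 CPM between the 3 replicate numbers (horizontal axis) and between the 5 glutamine groups (vertical axis) for the 53 tested genes, each a point. The dashed line marks equal ranges. LIAS lies far above the line at 0.19 and 0.85, while 37 genes lie below it.

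Other genes of the same pathways were read from a list of 94, of which 71 were tested. At 0.04 mM 2 of the 71 rose and 5 fell, where 7.21% of all genes rose and 6.23% fell. Their median log2 fold change was -0.09, against 0.01 for all genes. SLC2A3, the glucose transporter GLUT3, rose by 0.75 at 0.04 mM (adjusted p = 0.0134, edgeR), with 11.7 ± 2.74 CPM at 0.04 mM and 7.18 ± 2.08 CPM in full medium (SD, n = 3 each), and MMUT, methylmalonyl-CoA mutase, rose by 0.42 (adjusted p = 0.0196). The mitochondrial carriers SLC25A11, for malate and alpha-ketoglutarate, and SLC25A1, for citrate, fell by 0.46 and 0.38 (adjusted p = 0.000175 and 0.000776), as did G6PC3, a glucose phosphatase, by 0.47 (adjusted p = 0.000217). SLC25A11 had 66.4 ± 4.40 CPM at 0.04 mM and 91.1 ± 4.29 CPM in full medium, with no overlap of libraries. Of all 13828 genes, 1135 lay wholly below full medium at 0.04 mM. MECR, which completes mitochondrial fatty acid synthesis, the source of the octanoate for lipoate, fell by 0.52 (adjusted p = 0.00268), with 22.8 ± 1.19 CPM at 0.04 mM and 32.7 ± 2.89 CPM in full medium and no overlap. SLC25A10, whose exons overlap other genes over 46.6% of their length, fell by 0.66 (adjusted p = 0.0263). At 0.12 mM 0 rose and 3 fell (SLC25A11, SLC25A1 and G6PC3), where 3.90% of all genes fell. At 0.20 mM 0 rose and 4 fell (those 3 and ENO3), where 7.15% of all genes fell. At 0.28 mM 0 rose and 1 fell, SLC25A11 by 0.41 (adjusted p = 0.00366), where 0.846% of all genes fell. Without the replicate block, 0 of the 71 passed in any of these comparisons, so each of these calls depended on the block. None of the 6 tested lactate and pyruvate carriers passed in any comparison by edgeR or DESeq2. From the lowest to the highest limited concentration, 0, 0, 1 and 0 of the 6 had an unadjusted p under 0.05 against full medium. Among all 13828 genes 3749, 3090, 3931 and 2196 did, so these counts are no result about the 6 carriers.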

How the data were processed

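RNA of MCF10A cells in 5 glutamine groups was measured by total RNA sequencing after depletion of ribosomal RNA, with ERCC spike-ins added, per the labels' protocols. The authors deposited whole-number counts per gene and library, unnormalized, for 62754 genes and 92 spike-ins in 15 libraries, and these were used as deposited. The builds hg38 and GRCh38.p14 are named in the submitters' processing notes, while for the aligner, the counter and the use of strand the sources used here give nothing. With strand unknown, reads of a gene and of one overlapping it on the other strand cannot be told apart, so genes with over 10% exonic overlap in GENCODE 29 were marked as uncertain (12 of the 54).

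Depth was 3704170 to 13361406 gene counts per library, and low counts limit genes such as LIAS, LIPT1 and LIPT2. The members, lists, tests and named genes were chosen with earlier results of these data known. Named genes are the members called in at least 1 comparison with full medium, and SLC2A1, HK2, PFKFB3, LDHA, PGD, PC, PDK1, CS, IDH1, OGDH, SDHA, ME1 and LIAS. Other pathway genes are named where called, at most 4 per list, smallest adjusted p first. A single edgeR 4.0.16 quasi-likelihood fit under R 4.3.3 (filterByExpr, minimum count 10, minimum total 15, TMM) held all 15 libraries, with terms for group and replicate number and Benjamini-Hochberg adjustment, threshold 0.05. Same-numbered libraries correlated above 0.1 in all 30 pairs after group means were removed, and 15 of 15 libraries correlated best with their own number. The labels call the replicates biological but do not say what a number shares. CPM used TMM-scaled library sizes, and per-kilobase values used the union of exons in GENCODE 29. Alternatives were DESeq2 1.42.0, its size factors, spike-in scaling, other filters, subsets of libraries, thinning to 3704170 counts, no block, and the longest transcript as gene length. The fit was tested on simulated data. Promoter sequences are RefSeq's, GRCh38.p14.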

Additional observations from a re-analysis of the deposited data

How the results depend on the processing

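All 17 calls of a member kept their sign in the 16 alternatives run for each. DESeq2's size factors and a filter of 5 CPM in 3 libraries kept 17 of the 17 calls, DESeq2 and no filter 14 each, leaving out both libraries high in mitochondrial rRNA 11, the 2 compared groups alone 9, spike-in scaling and thinning to 3704170 counts 6 each, leaving out the third replicates 5, and the fit without the replicate block 0. Members called in the 4 comparisons with full medium, from 0.04 to 0.28 mM, were 6, 3, 8 and 0, and all genes called 1858, 1149, 2050 and 287. Without the replicate block there were 0 members in each comparison and 6, 0, 2 and 0 genes. Spike-in scaling gave 2, 7, 2 and 1 members and 506, 1206, 421 and 120 genes. It moved the median log2 fold change of all genes to -0.18 at 0.12 mM, -0.13 at 0.28 mM and 0.13 between 0.04 and 0.28 mM. Of the genes called under it, 76 of 1206 at 0.12 mM, 141 of 421 at 0.20 mM and 18 of 120 at 0.28 mM rose, and its 7 members at 0.12 mM fell, with a members' median of -0.21. With the third replicates left out, 1, 1, 4 and 0 members and 985, 455, 978 and 1 genes passed. With the 2 groups alone, 2, 0 and 7 members passed at 0.04, 0.12 and 0.20 mM, and 1189 genes at 0.04 mM and 296 at 0.12 mM. Thinning gave 1 member at each of 0.04, 0.12 and 0.28 mM, with 718, 1293 and 112 genes at 0.12 mM, 0.20 mM and 0.28 mM. Without the libraries high in mitochondrial rRNA 3 members passed at 0.04 mM, with a filter of 5 CPM 5 passed at 0.12 mM, and with no filter 1 passed at 0.28 mM. Leaving out 1 library gave 3 to 11, 1 to 6, 5 to 7 and 0 to 3 members and 956 to 2058, 537 to 1439, 977 to 1857 and 24 to 780 genes, the highest member counts at 0.04, 0.12 and 0.28 mM being those without full medium replicate 1.

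Between 0.04 and 0.28 mM, 0 members and 6 genes passed. This became 1 member and 63 genes with no filter, 1 member and 78 genes with the 2 groups alone, 3 genes without the third replicates, 11 after thinning, 0 without the block, and 1 to 16 with a library left out. The causes were not tested. With the longest transcript as gene length, 9 of 14 isozyme ratios moved beyond the spread between libraries.

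Depth limits LIPT1 and LIPT2, whose 95% intervals at 0.04 mM ran from -1.35 to 0.50 and from -0.38 to 0.80 on the log2 scale.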
